A study of Arabidopsis thaliana with 9 samples.

Results

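The loci described here are those of the mitochondrial genome of Arabidopsis thaliana, taken as every locus of the read table whose identifier begins with ATMG. They number 61 of 23338 loci and held 75577 of 16489004 reads. RNA came from laser-dissected shoot apical meristems of accession Col-0, the dividing tissue at the shoot tip that forms leaves and later flowers. The short days had 8 h light and 16 h darkness and the long days 16 h light and 8 h darkness. LD0 was sampled before any long day, LD1 after 1 long day and LD3 after 3 long days. Each time point had 3 libraries, 2 made as whole-transcriptome shotgun libraries (A and B) and 1 as a ready-to-run library (C). The labels name no mutant, transgene or chemical treatment, and give neither the number of plants behind a library nor whether plants were pooled separately. The p-values therefore measure only how these libraries vary, and that variation may be technical.

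Plant mitochondria carry a small genome that codes for ribosomal RNAs, some transfer RNAs and ribosomal proteins, proteins of cytochrome c maturation and a minority of the subunits of the respiratory chain. Most mitochondrial proteins are made from nuclear genes and imported, so the complexes of the respiratory chain and the ATP synthase are built from subunits of both origins. In Arabidopsis a copy of much of the mitochondrial genome lies in the nucleus, on chromosome 2.

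Depth differed widely between libraries. LD0 A, B and C were sequenced to 108753, 97153 and 2187205 counted reads, those of LD1 to 124360, 711363 and 714559, and those of LD3 to 102019, 1298372 and 11145220. A count of 0 allows 3 reads, which is 27.6 CPM (reads per 1000000 counted reads of the library) in LD0 A and 0.269 CPM in LD3 C. The meristem markers STM, KNAT1 and CLV3 had reads in all 9 libraries. Together with WUS, which had 32 reads in all, they took 0.0363% to 0.0659% of reads at LD3, 0.0451% to 0.0556% at LD0 and 0.0329% to 0.0756% at LD1. The 6 seed markers took 0.684% to 1.72% of reads at LD0, 0.000840% to 0.940% at LD1 and 0.0285% to 0.161% at LD3. The 5 leaf mesophyll markers took 0.0309% to 0.0539%, 0.0333% to 0.0860% and 0.00496% to 0.0882%. In bulk tissue, fewer cells of a type and less RNA per cell cannot be told apart.

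The files describe none of the mitochondrial loci: all 61 have a blank description in the authors' deposited tables. Notes on nuclear copies in the RefSeq annotation of TAIR10.1 name 9 of them, call 5 an unknown protein and leave 47 without a name, so most loci are given here by identifier alone and no split into ribosomal RNAs and open reading frames was made. Of the 9 named loci, ATMG01275 and ATMG01320 code for subunits of complex I, the NADH dehydrogenase, and ATMG00730 for subunit 3 of complex IV, the cytochrome c oxidase. ATMG00410, ATMG01080, ATMG01090 and ATMG01190 code for subunits of the ATP synthase. ATMG00180 and ATMG00960 belong to cytochrome c maturation, which attaches haem to c-type cytochromes.

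Mitochondrial reads took 0.518%, 0.821% and 0.814% of reads in LD0 A, B and C. They took 0.587%, 0.899% and 2.76% at LD1 and 0.334%, 0.218% and 0.237% at LD3. Every LD3 library was below every LD0 and every LD1 library, LD1 overlapped LD0, and LD1 C was the highest of the 9. Exact 95% binomial intervals, which cover counting error only, were 0.2998% to 0.3716% for LD3 A and 0.476% to 0.562% for LD0 A, the shallow libraries of these groups that lay closest together. The group means were 0.718% ± 0.173 (SD, n = 3) at LD0, 1.41% ± 1.17 (SD, n = 3) at LD1 and 0.263% ± 0.0623 (SD, n = 3) at LD3.

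On the log2 scale the mean share at LD3 was lower than at LD0 by a difference of -1.44, a 2.72-fold lower geometric mean, and it was lower in 3 of 3 letters. The two-sided exact permutation test gave p = 0.1, the smallest that 3 against 3 libraries allow. Against LD1 the difference was -2.13, a 4.38-fold lower geometric mean, again with p = 0.1 in the exact permutation test, and 2.81-fold without LD1 C. LD1 exceeded LD0 by 0.69 on the log2 scale with p = 0.4 in the exact permutation test, and by 0.05 without LD1 C. With p-values adjusted over the 40 relations computed in this family, the smallest was 0.25, so no difference passed 0.05. The libraries C exceeded A and B by 0.69 on the log2 scale, with p = 0.452 in the exact permutation test of 3 against 6, and this turned to -0.20 without LD1 C.

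**Figure D1:**
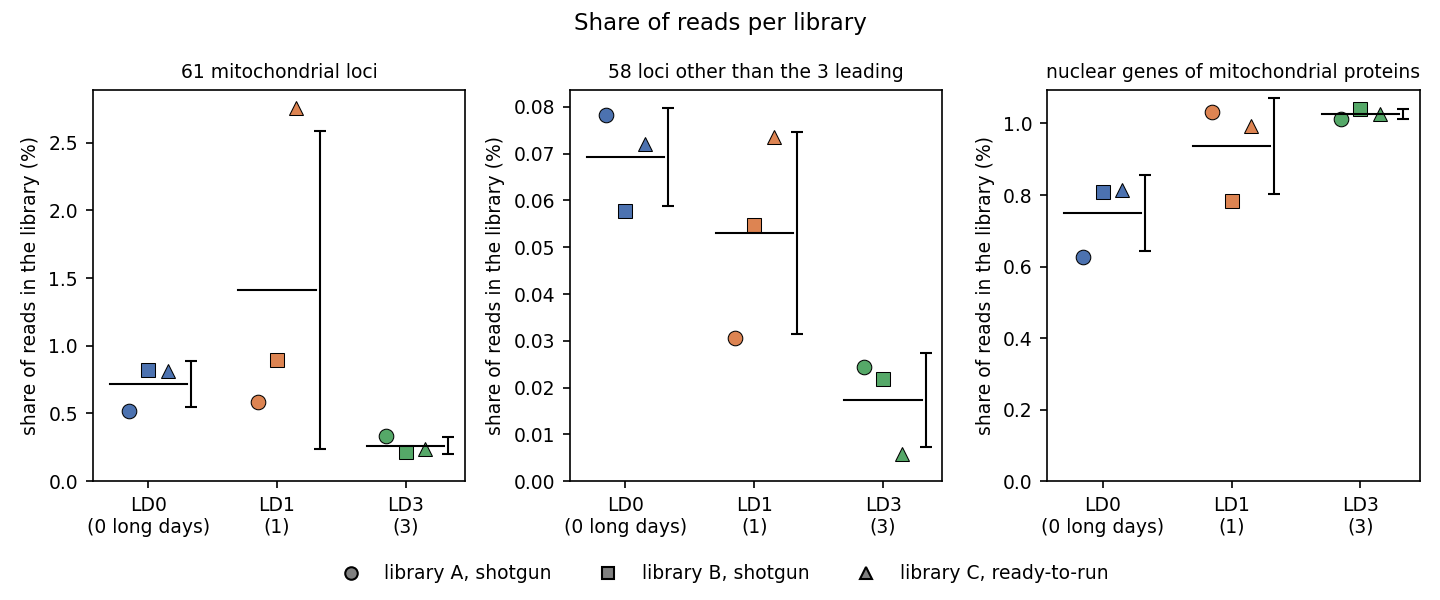
Share of the reads of each library, in percent, on the 61 mitochondrial loci, on the 58 loci other than the 3 with most reads, and on 48 nuclear genes of mitochondrial proteins. Symbols are single libraries by letter, lines are means and bars are SD (n = 3); LD3 lies lowest in the first and second panels and, against LD0, highest in the last.

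The reads lay on very few loci. ATMG00020 held 50602 reads, ATMG01390 held 16955 and ATMG00030 held 4384, together 95.2% of the mitochondrial reads. The other 58 loci shared 3636 reads. Of these, 12 had 138 to 383 reads, 20 had 10 to 93 and 26 had under 10. Only 4 of the 61 loci had reads in all 9 libraries, and 17 had reads in 1 library. Between 13 loci in LD1 A and 41 in LD0 C were detected per library.

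ATMG00020, the locus with most reads, stood at 2483, 4230 and 4831 CPM in LD0 A, B and C. It stood at 2396, 6576 and 13676 at LD1 and at 2303, 1459 and 2017 at LD3. All LD3 libraries were lower than all LD0 and LD1 libraries, although LD3 A and LD1 A lay close together. ATMG01390, in second place, stood at 1499, 3016 and 1576 CPM at LD0, at 2646, 1463 and 12378 at LD1 and at 520, 262 and 219 at LD3. Here the highest LD3 library was well under the lowest of LD0 and LD1. ATMG00030 stood at 414, 391 and 1015 CPM at LD0, at 523, 399 and 791 at LD1 and at 274, 244 and 73.8 at LD3.

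The LD3 libraries of all 3 loci lay below both other time points. In log2 share, LD3 was below LD0 by -0.97 for ATMG00020, by -2.63 for ATMG01390 and by -1.68 for ATMG00030, each with p = 0.1 in the exact permutation test. These are 1.96-fold, 6.20-fold and 3.21-fold lower geometric means. For ATMG00030 the difference was 2.12-fold without LD3 C and 1.55-fold with libraries A and B alone. The other 58 loci summed showed the same order. They took 0.0782%, 0.0576% and 0.0720% of reads at LD0, 0.0306%, 0.0548% and 0.0736% at LD1 and 0.0245%, 0.0219% and 0.00589% at LD3, a 4.68-fold lower geometric mean at LD3 than at LD0 (exact permutation p = 0.1). Without LD3 C it was 2.97-fold lower. Reads counted on nuclear copies were not added to this sum, so its fold difference holds for the mitochondrial loci as counted.

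**Figure D2:**
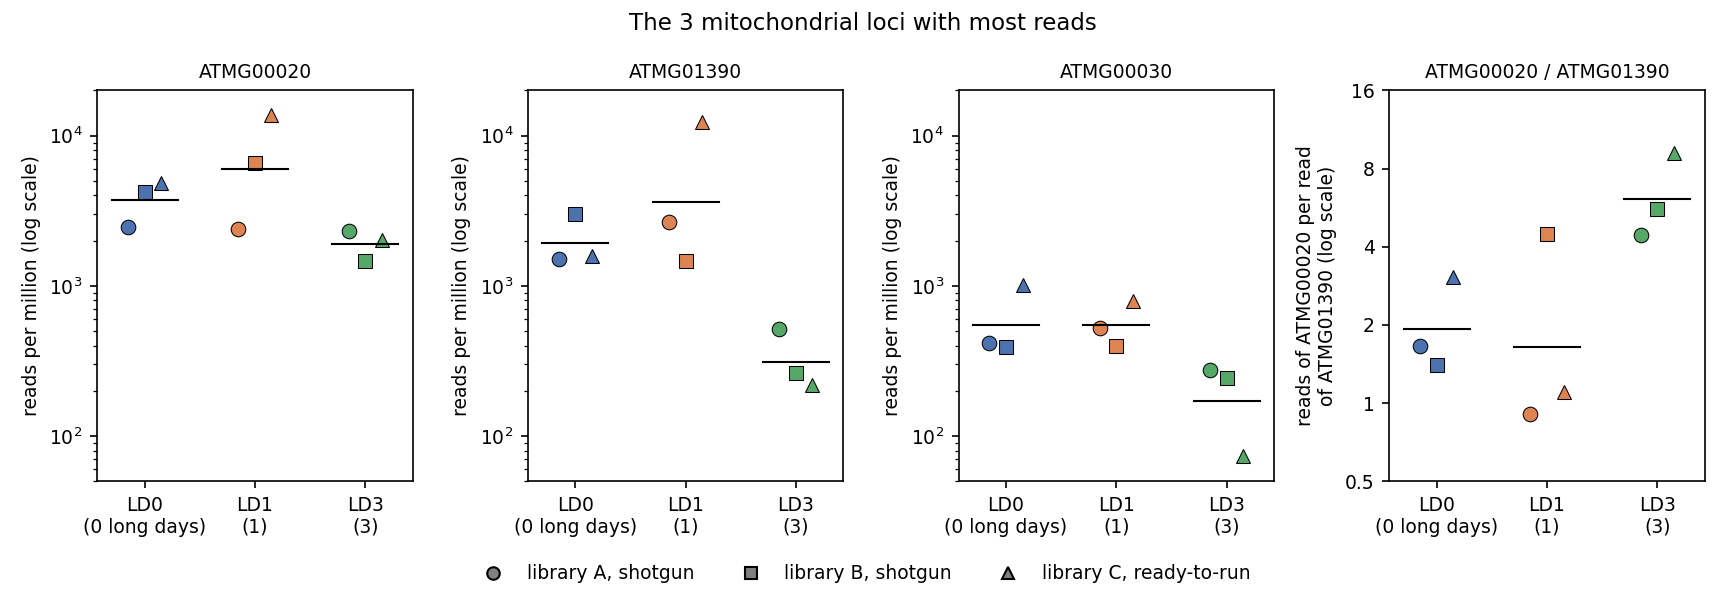
CPM (log scale) of the 3 mitochondrial loci with most reads, and the reads of ATMG00020 per read of ATMG01390 (log scale), by library. Lines are geometric means; the LD3 symbols lie lowest in the first 3 panels, and in the last lie above every LD0 library.

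The make-up of the mitochondrial reads also differed. ATMG00020 had 1.66, 1.40 and 3.07 reads per read of ATMG01390 in LD0 A, B and C, 0.906, 4.49 and 1.10 at LD1 and 4.43, 5.57 and 9.20 at LD3. This ratio lies within a library and does not depend on the scaling between libraries. All LD3 libraries exceeded all LD0 libraries, by 1.67 on the log2 scale or 3.17-fold (exact permutation p = 0.1). LD3 A lay under LD1 B, so LD3 and LD1 overlapped, and the difference of 1.89 had p = 0.2 in the exact permutation test.

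As a share of mitochondrial reads, ATMG00020 took 48.0% to 59.3% at LD0, 40.8% to 73.2% at LD1 and 66.8% to 85.1% at LD3. ATMG01390 took 19.4% to 36.7%, 16.3% to 45.1% and 9.26% to 15.5%, and its LD3 libraries lay below all others. ATMG00030 took 4.76% to 12.5%, 2.87% to 8.90% and 3.12% to 11.2%, and the 58 others took 7.02% to 15.1%, 2.67% to 6.10% and 2.49% to 10.02%. For these last shares LD3 overlapped both other time points.

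**Figure D3:**
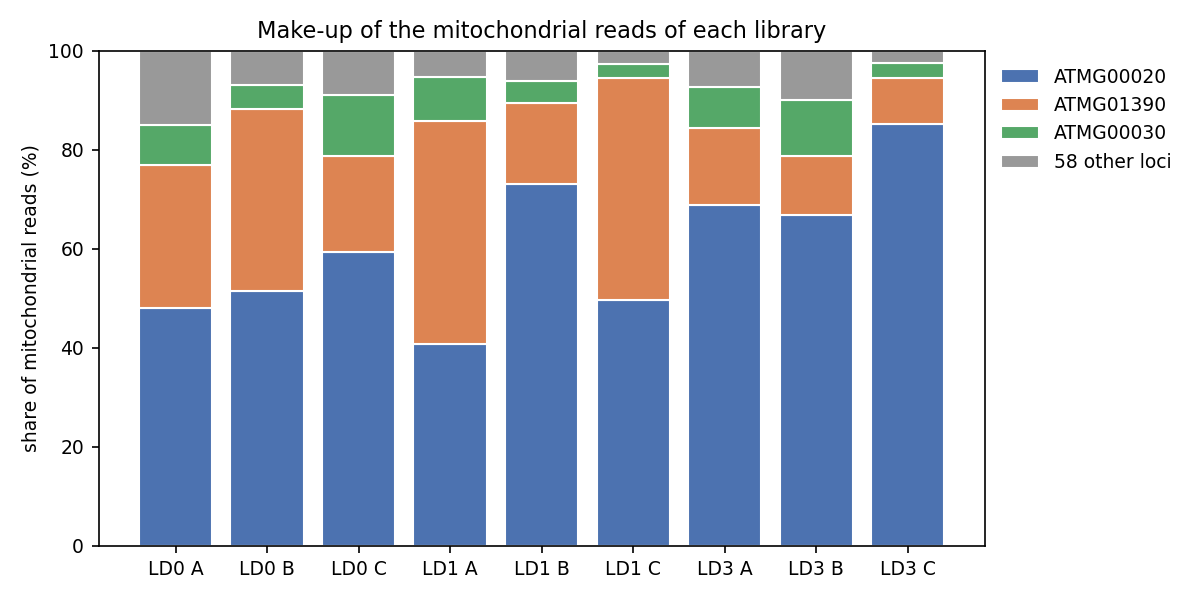
Share of the mitochondrial reads of each library, in percent, on ATMG00020, ATMG01390, ATMG00030 and the 58 other loci, as stacked bars from 0. The ATMG01390 part is smallest in the 3 LD3 libraries, where it takes 9.26% to 15.5%.

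Across single loci in CPM, without any filter, 11 of the 61 had every LD3 library below every LD0 library, against 2.31% of all 23338 loci, and 1 (ATMG01370) had every LD3 library above every LD0 library, against 5.79%. The lower ones were ATMG00020, ATMG00030, ATMG00070, ATMG00090, ATMG00180, ATMG00270, ATMG00516, ATMG00520, ATMG01320, ATMG01380 and ATMG01390. Several of them rest on single reads: ATMG00520 had 1, 1 and 5 reads at LD0 and 0, 1 and 0 at LD3. A count of 0 in LD3 A allows 29.4 CPM, so it is not shown to lie below such values. With LD3 libraries under 3 reads raised to 3 reads, an alternative chosen after seeing the data, 4 of the 61 were lower than LD0 (ATMG00020, ATMG00030, ATMG01380 and ATMG01390), against 1.24% of all loci. Against LD1, 6 of 61 were lower at LD3 (0.626% of all loci) and 0 were higher (5.98%). With the same floor 4 of 61 were lower (ATMG00020, ATMG00030, ATMG01360 and ATMG01390), against 0.296%. Between LD1 and LD0, 4 of 61 were lower at LD1 (2.74% of all loci) and 0 higher (1.8%). LD0 and LD1 libraries serve in more than 1 of these comparisons, so the counts are not separate pieces of evidence.

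Members with 138 to 383 reads mostly had few of them at LD3. ATMG00090 had 12, 2 and 324 reads in LD0 A, B and C, 1, 10 and 0 at LD1 and 2, 16 and 0 at LD3. It stood at 20.6 to 148 CPM at LD0 and at no more than 19.6 in any LD3 library. The 20.6 CPM of LD0 B and the 19.6 of LD3 A each come from 2 reads, so these libraries are not shown to differ. ATMG01380 stood at 101, 103 and 79.1 CPM at LD0, at 72.4, 23.9 and 2.80 at LD1 and at 39.2, 6.16 and 7.81 at LD3. ATMG00070 had 240 of its 248 reads in LD0 C. ATMG00830 had 58 reads in LD0 C and 0 in LD0 A and B, 3, 3 and 144 at LD1, and 0 in all LD3 libraries. Its mean of 76.6 CPM at LD1 was at least 7.19-fold higher than at LD3, with 3 reads per library as the floor, but without LD1 C the mean was 14.2 CPM and the bound 1.33-fold. Its LD0 mean of 8.84 was under that floor, so no fold is given.

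Not all loci were low at LD3. ATMG00730, cytochrome c oxidase subunit 3, had 0, 0 and 2 reads at LD0, 0 in every LD1 library and 0, 7 and 157 at LD3. ATMG01170, which has no name, had 115 of its 138 reads at LD3, 108 of them in LD3 C. In CPM it stood at 4.62 to 9.80 at LD3, at 30.8 in LD1 C and at 10.3 in LD0 B, with 0 reads in the 4 other libraries, so its groups overlapped. ATMG00580 and ATMG00510 also overlapped between time points, at 16.2 to 39.3 and 4.31 to 10.8 CPM at LD3 against 0 to 82.8 and 0 to 17.4 at LD0. ATMG01370 had 1 read at LD0, 2 at LD1 and 23 at LD3.

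**Figure D4:**
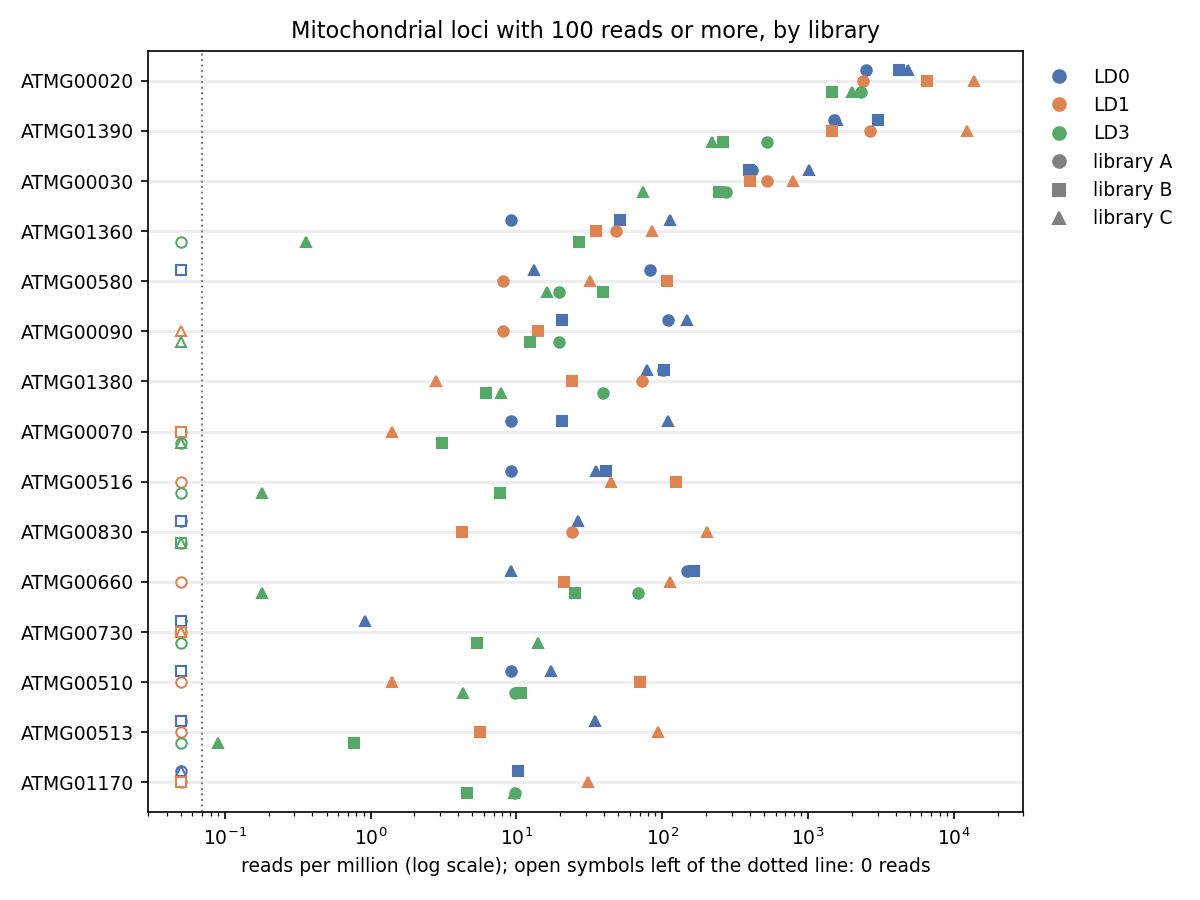
CPM (log scale) of the 15 mitochondrial loci with 100 reads or more, by library; colours are time points, symbols are letters, and open symbols left of the dotted line are libraries with 0 reads. LD3 symbols lie below all others in the rows of ATMG00020, ATMG01390 and ATMG00030. In the other rows they overlap LD0, LD1 or both, and in that of ATMG00730 the highest symbols are from LD3.

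The named respiratory loci were shallow. The 47 loci without a name may include further genes of these classes, so the sums given here are not totals of a complex. The 2 loci named as complex I had 27 reads, nearly all on ATMG01320, NADH dehydrogenase 2B. It had 1, 1 and 14 reads at LD0, 0, 3 and 0 at LD1 and 0, 6 and 0 at LD3. The 4 loci named as ATP synthase had 67 reads in all. Of these, 37 fell on ATMG00410, ATPase subunit 6-1, with 1, 0 and 23 at LD0, 0, 1 and 10 at LD1 and 1, 1 and 0 at LD3. ATMG01080, subunit 9, had 21 reads, ATMG01090 had 8 and ATMG01190, subunit 1, had 1. ATMG00180, of cytochrome c maturation, had 10, 2 and 25 reads at LD0, 0, 2 and 12 at LD1 and 1, 14 and 18 at LD3, and ATMG00960 had 5 in all. The 5 loci noted as an unknown protein were ATMG01220, ATMG01050, ATMG01180, ATMG00400 and ATMG01030, with 20, 6, 4, 2 and 2 reads.

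Reads of these genes were also counted on nuclear copies. In TAIR10.1 the 21 nuclear loci of the read table that RefSeq notes tie to a mitochondrial locus are 99.8% to 100% identical to the mitochondrial genome over the aligned stretch, and reads of such copies cannot be told apart. They held 1644 reads. AT2G07671, 100% identical over 776 bases, held 829 reads beside the 21 of ATMG01080. AT2G07785 held 221 reads beside the 2 of ATMG01275. Summed with its copy AT2G07687, which is 100% identical over 998 bases, cytochrome c oxidase subunit 3 had 0, 2 and 33 reads at LD0, 0, 0 and 17 at LD1 and 0, 10 and 163 at LD3. That is 15.1 CPM in LD0 C, 23.8 in LD1 C and 14.6 in LD3 C, so the high LD3 count of ATMG00730 alone was no longer high once the copy was added. ATMG00180 with AT2G07815 gave 92.0, 20.6 and 11.9 CPM at LD0, 0, 5.62 and 16.8 at LD1 and 19.6, 12.3 and 14.9 at LD3. LD3 and LD0 overlapped in this sum, so the lower LD3 level of ATMG00180 alone was lost once the copy was added. ATP synthase subunit 9, as ATMG01080 with AT2G07671, gave 55.2, 41.2 and 214 CPM at LD0. It gave 40.2, 125 and 5.60 at LD1 and 29.4, 39.3 and 19.6 at LD3. Every LD3 library was below every LD0 library, an order that 2.31% of all single loci had. The 41.2 CPM of LD0 B came from only 4 reads, so LD0 B and LD3 B are not shown to differ. Adding the 21 loci to the mitochondrial share left the LD3 against LD0 difference at -1.43 on the log2 scale. With 1644 reads beside 75577, they could hardly move it. They are not few beside the 3636 reads of the 58 other loci, whose share was not recomputed with copies. A wider range of chromosome 2 around these copies had 49 loci in the read table with 5615 reads, 3672 of them in LD3 C. Adding that range to the mitochondrial share gave an LD3 against LD0 difference of -1.35.

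A test over all loci with edgeR's quasi-likelihood F test, with time point and library preparation as terms, kept 9300 loci with enough reads, of which 12 were mitochondrial. These 12 passed a filter on low counts that favours loci high in at least 1 group, so they do not stand for the 61. At a Benjamini-Hochberg adjusted p under 0.05 the test called 0 of 12 and 0% of all loci in each of the 3 comparisons of time points. DESeq2 called 0, 4 and 1 of the 12 beside 32, 298 and 9 of all loci. At an unadjusted p under 0.05, edgeR gave 2 of 12 against 6.39% of all loci for LD1 against LD0, 7 of 12 against 7.91% for LD3 against LD0, and 6 of 12 against 4.05% for LD3 against LD1. The preparation called 81 loci (0.871%) at the adjusted threshold and 17.9% at the unadjusted one, with 0 and 2 of the 12 among them.

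For LD3 against LD0 all 12 fitted log2 fold changes were negative, beside 47.2% of all loci tested, with a median of -2.73 beside 0.09. Over all 61 loci, in the edgeR fit without the filter, 45 were negative and 16 positive, with a median of -2.16, beside 54.3% negative and a median of -0.11 over all loci. These counts and the median include ATMG00400, ATMG01350, ATMG01400 and ATMG01130, which had no reads at LD0 or LD3, so their signs carry no information. Of the 61, 26 had under 10 reads in all libraries together. The smallest p belonged to ATMG00830, ATMG01390 and ATMG00270, all with an adjusted p of 0.560 in edgeR. ATMG01390 had a log2 fold change of -2.77 ± 0.71 (SE). ATMG00270 had 4, 10 and 8 reads at LD0, 0, 29 and 8 at LD1 and 0, 3 and 0 at LD3. ATMG01380 followed at -2.98 ± 1.11, ATMG00030 at -1.63 ± 0.67, ATMG00090 at -5.07 ± 2.201 and ATMG00020 at -1.11 ± 0.50, with adjusted p-values of 0.562 to 0.628. DESeq2 called ATMG01390, ATMG00270, ATMG01380 and ATMG00090, with adjusted p-values of 0.0239 to 0.0438. Without the filter on low counts edgeR called ATMG01390 and ATMG00020, 2 of the 61, beside 367 of 23312 loci.

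For LD3 against LD1 all 12 were again negative, beside 47.2% of all loci, with a median of -2.29 beside 0.08. Over the 61 without the filter, 44 were negative and 17 positive, with a median of -0.84, beside 46.6% negative and a median of 0.16 over all loci. Loci with no reads at LD1 or LD3, such as ATMG00040 and ATMG01090, are included, and their signs carry no information. ATMG00830, ATMG01390 and ATMG00020 had the smallest p, each with an adjusted p of 0.974 in edgeR. The log2 fold change was -4.01 ± 0.80 (SE) for ATMG01390 and -2.16 ± 0.52 for ATMG00020. Without LD1 C they were -2.66 and -1.70. DESeq2 called ATMG01390 (adjusted p = 0.00992). Without the filter edgeR called ATMG00830, ATMG01390 and ATMG00020 (adjusted p = 0.00211, 3.98e-16 and 5.50e-08), 3 of the 61, beside 186 of 23312 loci. With the filter the same loci had an adjusted p of 0.974 in edgeR, so these calls depend on the filter. ATMG00830 had 3, 3 and 144 reads in LD1 A, B and C, so its call rests mainly on LD1 C. For LD1 against LD0, 8 of the 12 were positive and 4 negative, with a median of 0.19 beside -0.06 over all loci. This lean was not present over the 61 without the filter, where 30 were positive and 31 negative with a median of -0.10, beside 57.9% negative and a median of -0.45 over all loci. Here too some loci, such as ATMG01050, had no reads in either group. ATMG00830 at 3.45 ± 1.40, ATMG00090 at -4.78 ± 2.10 and ATMG00020 at 1.05 ± 0.51 had the smallest p, each with an adjusted p of 0.772 in edgeR. Without LD1 C the values of ATMG01390 and ATMG00030 for LD1 against LD0 turned from 1.24 and 0.07 to -0.19 and -0.34.

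**Figure D5:**
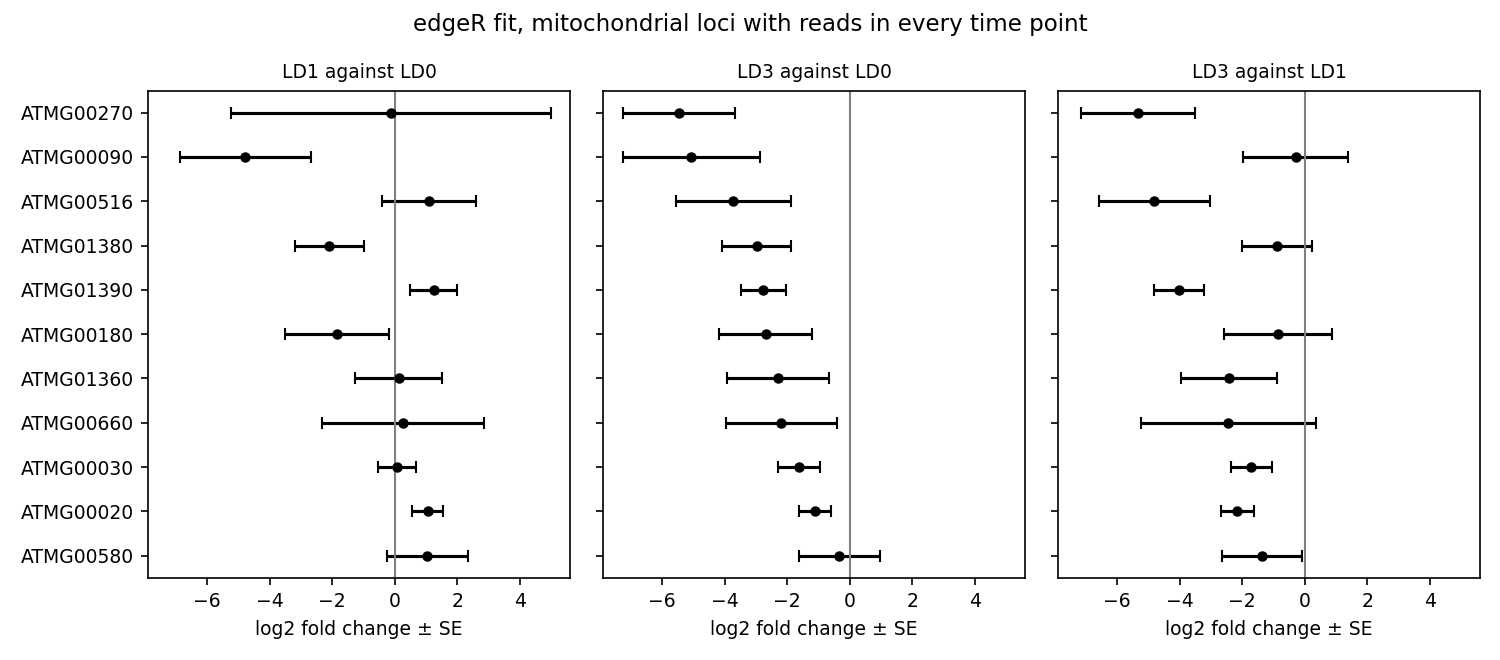
Log2 fold changes with their standard errors from the edgeR fit for 11 mitochondrial loci, leaving out ATMG00830, which had 0 reads at LD3. All points lie left of 0 in both comparisons of LD3, and on both sides for LD1 against LD0; none passed the adjusted threshold.

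The authors' deposited table listed 55, 57 and 52 of the 61 loci for LD1 against LD0, LD3 against LD0 and LD3 against LD1. In the authors' deposited table an unadjusted p under 0.05 stood beside 3 of 55 (6.78% of all loci listed), 6 of 57 (7.51%) and 7 of 52 (8.70%). For ATMG01390 the authors' deposited table gave a log2 fold change of -2.74 with p = 0.0779 for LD3 against LD0 and of -4.57 with p = 0.00653 for LD3 against LD1.

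The nuclear genes of mitochondrial proteins, a list of 48 genes, did not follow the mitochondrial loci. They took 0.627%, 0.808% and 0.813% of reads at LD0, 1.03%, 0.783% and 0.993% at LD1 and 1.01%, 1.04% and 1.03% at LD3. LD3 lay above every LD0 library, by 0.46 on the log2 scale or 1.38-fold (exact permutation p = 0.1), and overlapped LD1. Per mitochondrial read, the nuclear list had 1.21, 0.984 and 0.998 reads at LD0, 1.76, 0.871 and 0.360 at LD1 and 3.03, 4.77 and 4.33 at LD3. This ratio was 3.75-fold higher at LD3 than at LD0 (exact permutation p = 0.1) and the groups did not overlap. Its mitochondrial reads lay mostly on ATMG00020 and ATMG01390, which have no name and may be rRNA loci. It is therefore not shown to be a ratio between protein-coding genes of the 2 genomes.

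Of the 48 nuclear genes, 44 were tested, and edgeR and DESeq2 each called 0 in every comparison of time points. For LD3 against LD0, 31 had a positive and 13 a negative log2 fold change, with a median of 0.30, beside 47.2% negative and a median of 0.09 over all loci tested, and 1 had an unadjusted p under 0.05. For LD1 against LD0, 31 were positive and 13 negative with a median of 0.40, beside 51.8% negative and a median of -0.06, and 3 were under 0.05. For LD3 against LD1, 22 were positive and 22 negative, beside 47.2% negative, with 0 under 0.05. Each of these counts under 0.05 was near or below the 7.91%, 6.39% and 4.05% of all loci. UCP1, an uncoupling protein of the inner membrane, stood at 9.20, 20.6 and 34.3 CPM at LD0, at 80.4, 52.0 and 92.4 at LD1 and at 68.6, 101 and 137 at LD3. All its LD1 and LD3 libraries exceeded all LD0 libraries, an order that 1.8% of all 23338 loci had for LD1 and 5.79% for LD3. Its values in LD0 A and B rest on 1 and 2 reads, under the floor of 3. The log2 fold changes of UCP1 were 1.96 ± 0.81 and 2.17 ± 0.81, with adjusted p-values of 0.772 and 0.560 in edgeR. CYC1-2, cytochrome c1 of complex III, had 2.31 ± 0.84 for LD1 against LD0 (adjusted p = 0.772 in edgeR). COX6A, a nuclear subunit of complex IV, had 1.14 ± 0.53 for LD3 against LD0 (adjusted p = 0.646 in edgeR). VDAC1, the porin of the outer membrane, and MGP1, a subunit of the ATP synthase, had -0.74 ± 0.51 and -0.96 ± 0.70 for LD3 against LD1 (adjusted p = 0.974 in edgeR). For the preparation, HSP60, a chaperonin, and ATP-EPSILON, the epsilon subunit of the ATP synthase, had log2 fold changes of 1.62 ± 0.36 and 1.73 ± 0.50 for C against A and B (adjusted p = 0.0585 and 0.104 in edgeR), and DESeq2 called both.

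Other RNAs also differed between libraries. The nuclear rRNA loci AT2G01010 and AT3G41768 took 0.0267% to 0.250% of reads at LD0, 0.00562% to 0.970% at LD1, with LD1 C highest, and 0.00294% to 0.00672% at LD3. The 85 plastid loci took 0.202%, 0.138% and 0.0491% at LD0, 0.131%, 0.139% and 0.310% at LD1 and 0.0990%, 0.0732% and 0.0280% at LD3. The plastid share at LD3 was below every LD1 library but overlapped LD0, where LD0 C lay within the LD3 range. The seed marker share was also lower in every LD3 library than in every LD0 library, but it was lowest in LD1 C, at 0.000840%, where the mitochondrial share was highest. The part of these RNAs, of RNA quality and of depth in the mitochondrial result was not tested. Leaving nuclear rRNA and plastid loci out of the total left the LD3 against LD0 difference in mitochondrial share at -1.44 on the log2 scale. These loci held so small a part of most libraries that their removal could hardly move it. With libraries A and B alone the difference was -1.27.

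The 2 kinds of library differed in the balance of the organelles. Per plastid read there were 2.56, 5.96 and 16.6 mitochondrial reads in LD0 A, B and C, 4.48, 6.46 and 8.89 at LD1 and 3.38, 2.98 and 8.46 at LD3. Every library C exceeded every library A and B, 2.65-fold in the geometric mean, with p = 0.0238 in the exact permutation test, the smallest that 3 against 6 libraries allow, and 0.25 after adjustment over the 40 relations. Within a letter, LD3 was lower than LD0 for 2 of 3 letters, and the time points overlapped (exact permutation p = 0.7).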

How the data were processed

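Per the labels' protocols, RNA of laser-dissected meristems was extracted and amplified, and cDNA was made with random primers. The authors deposited whole-number read counts per locus in 16 columns for 9 libraries. BLASTN 2.2.13 matched the reads of some columns and BLASTN 2.2.21 those of the others, per the file headers. No coordinates or sequences are printed, since the sources used here give neither the build nor strand use nor the handling of multiple matches. Empty cells were read as 0 and the read 1 and read 2 columns of a library were summed, so a fragment can count more than once, and intervals and floors cover counting error only. The authors also deposited log2 fold changes with an unadjusted p-value, a product of edgeR according to the submitters' processing notes.

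Shares are reads on the loci over all counted reads of a library. They were compared on the log2 scale by two-sided exact permutation tests (SciPy 1.17.1), with Benjamini-Hochberg adjustment over 40 relations. Tests of counts used edgeR 4.0.16 under R 4.3.3 (TMM, filterByExpr with a minimum count of 10, time point and preparation as terms, 9300 loci, 5 residual degrees of freedom, common biological coefficient of variation 0.898). A standard error is the log2 fold change over the square root of F. Median standard errors of the time comparisons were 1.23 to 1.28. DESeq2 1.42.0 was an alternative, and the fit was tested on simulated data. Nuclear copies were aligned with blastn 2.17.0 within TAIR10.1.

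The members and lists were chosen with earlier results of these data known. Loci named are the leading ones, up to 5 per annotated class with most reads, the 3 with the smallest p per comparison, and of the nuclear list the 2 with the smallest p. ATMG01170, ATMG00510, ATMG00580, ATMG00070, ATMG01370, ATMG00516, ATMG00520, ATMG01360 and the loci called by DESeq2 were named after their values were seen. The rRNA share of mitochondrial reads had been planned, but could not be computed with blank descriptions; the ratio of the leading loci was chosen after the data were seen.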

Additional observations from a re-analysis of the deposited data

How the results depend on the processing

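The lower mitochondrial share in LD3 kept its direction under all 14 alternatives against LD0 (log2 difference -2.36 to -1.27) and all 14 against LD1 (-2.93 to -1.43). Many of these could not have reversed it. Every LD3 library lay below every LD0 and LD1 library, so leaving out libraries could change only the size of the difference. The replicate block gives the same difference by construction. LD1 against LD0 ran from 0.05 to 1.16 with each library left out in turn, and was -0.25 without the 2 loci with most reads. C against A and B ran from -0.20 to 1.57 and was -0.14 without these loci. The ratio of ATMG00020 to ATMG01390 for LD1 against LD0 ran from -0.94 to 0.21 with each library left out and was 0.40 with A and B only. For LD1 against LD0, ATMG00030 ran from -0.34 to 0.71 and was -0.11 with 1 read column, and ATMG01390 ran from -0.19 to 1.93 and was -0.32 with A and B only; in share, ATMG00030 ran from -0.26 to 0.45 and was -0.13 with 1 read column, and ATMG01390 was -0.11 with A and B only. Nuclear reads per mitochondrial read ran from -0.92 to 0.22 and were 0.18 with A and B only. For LD3 against LD0, leaving out each library gave -2.60 to -1.57 for the 58 others, and for LD3 against LD1 4.38-fold to 2.15-fold lower.

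Over all loci, edgeR called 0 in LD1 against LD0, 0 in LD3 against LD0 and 0 in LD3 against LD1, with 594, 736 and 377 at an unadjusted p under 0.05. DESeq2 called 32, 298 and 9, and 107, 367 and 186 were called without a filter on low counts. Leaving out each library gave 0 to 0, 0 to 1 (without LD0 B) and 0 to 0 calls. For the preparation the 81 calls became 1134 with DESeq2, 590 without the filter, 51 with RLE size factors and 0 (without LD1 C) to 111 with each library left out. The cause was not tested. RLE moved the median of all loci for LD3 against LD0 from 0.09 to -0.18, and the members' median relative to it was -2.82 under both.

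With the letter as replicate block, 0, 2 and 0 loci were called and 0 members. Same-letter libraries deviated together with correlations of 0.073 to 0.352, 8 of 9 above 0.1. In 18 of 18 cases a library correlated best with its own letter, but these cases reuse the same 9 pairs. All C libraries were ready-to-run and all A libraries were shallow, and neither was taken out of these correlations. They therefore cannot tell a pairing of replicates from preparation or depth, and the labels state no pairing. Within letters the share differences were the same and sign flips gave an exact permutation p of 0.25, the smallest that 3 pairs allow. The alternative without mitochondrial rRNA loci was not run, as the sources used here annotate no member as one. Loci without a name, among them the 3 with most reads, may still be rRNA loci. How far rRNA makes up the mitochondrial share was therefore not tested. Depth limits the rest: in the shallow libraries 3 reads equal 24.1 to 30.9 CPM.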

Other observations

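Read 1 and read 2 of a library did not always give the same mitochondrial share. In LD0 B it was 1.29% in read 1 and 0.674% in read 2, in LD1 A 0.801% and 0.491%, in LD1 B 1.08% and 0.816% and in LD3 B 0.275% and 0.194%, higher in read 1 in all 4 shotgun libraries with 2 columns. In the ready-to-run libraries the columns lay close together, at 0.816% and 0.813% in LD0 C, 2.76% and 2.75% in LD1 C and 0.239% and 0.235% in LD3 C, where read 1 was matched with BLASTN 2.2.21 and read 2 with BLASTN 2.2.13. In each of these shotgun libraries read 2 held more reads than read 1, such as 73894 against 23259 in LD0 B.

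Single libraries held most of the reads of several minor loci. LD0 C held 91 of the 93 reads of ATMG00040, 324 of the 367 of ATMG00090 and 240 of the 248 of ATMG00070. LD3 C, with 11145220 reads the deepest library, had reads on 23 mitochondrial loci, and LD3 B, with 1298372, on 39.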
